A study of Triticum aestivum with 9 samples.

Results

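The core histone genes wcH2B-8 (LOC543184), wcH2A-9 (LOC732714) and wcH2A-2 (LOC732712) of bread wheat, Triticum aestivum, were followed in developing grain. They are 3 of the 771 genes that the platform's probe-to-gene table names, and all probe sets it assigns to them were taken, 14 of the 61115 probe sets on the array that are not controls. Of the 14, 7 belong to wcH2B-8, 6 to wcH2A-9 and 1 to wcH2A-2. Grain of the cultivar Jimai 20, from field plots, was sampled at 11 (P1), 15 (P2) and 20 (P3) days post-anthesis, with 3 biological replicates per phase and 1 Affymetrix wheat GeneChip per replicate, 9 arrays in all. The groups differ in age only, as far as the labels state, and share cultivar, station and season. Nothing in the labels ties a replicate to the same plot in another phase, so the p-values measure the spread between these samples.

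Histones H2A and H2B pair as a dimer, and dimers flank the central H3 and H4 tetramer of the nucleosome, the unit in which DNA is packed. Most core histone transcripts accumulate when DNA is replicated, and plant histone mRNAs carry poly-A tails, so that labelling from the poly-A tail can detect them. In cereal grain, division of endosperm nuclei ends early in filling while many nuclei go on copying their DNA, and the embryo continues to form new cells. Core histones are multigene families, and wheat is a hexaploid with related copies of most genes on its 3 subgenomes. A probe set whose name ends in _x_at holds some probes that can bind other transcripts, and one ending in _s_at holds probes shared by several transcripts, so the signal of a probe set is uncertain as a measure of 1 copy. Of the 14 probe sets, 8 are _x_at, 1 is _s_at and 5 are _at probe sets.

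All 14 probe sets passed the filter on dim signal. Signals are linear MAS5 values without a unit, comparable for 1 probe set between arrays but not between probe sets, and each ± is an SD over 3 arrays. Array background, the 95th percentile of probe sets for sequences foreign to wheat, ranged from 89.4 to 153.3. The wcH2B-8 and wcH2A-9 probe sets were above it on all 9 arrays, and the wcH2A-2 probe set on 8 of 9. The grain was checked by marker lists. The summed signal of 21 probe sets for starchy endosperm, such as gliadins and glutenins, spanned 574847 to 650165 on the P1 arrays, 513977 to 551612 on P2 and 603518 to 741128 on P3, with 19 of them above background in each phase. That of 10 probe sets for embryo and aleurone went from 6583 to 6992 at P1, through 41600 to 44818 at P2, to between 228443 and 271026 at P3, and 3, 10 and 10 of them were above background on every array. That of 32 probe sets for green pericarp spanned 121978 to 134917, 120348 to 140761 and 70488 to 80695, with 8, 8 and 9 above background. Most of it came from rbcl, whose brightest probe sets had means of 60200 and 46000 at P1 and 64100 and 48700 at P2. Of the 32, 13 were tested, and from P1 to P2 3 fell and 1 rose at an adjusted p under 0.05 by limma. The falls were in PsbO (log2 change -0.86), PRK (-0.48) and PsbP on Ta.85.1.S1_at (-0.47), and the rise in rbcl (1.19). The green pericarp sum does not show these falls. These marker sums move with phase, their part in the histone values was not tested, and in bulk grain fewer cells of a type and less RNA per cell cannot be told apart.

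The 3 P2 arrays stand apart in the control transcripts spiked into the RNA. The log2 ratio of their 3-prime to 5-prime signal was lowest in the P2 grain, 1.44 ± 0.15 (SD, n = 3), against 2.20 ± 0.11 for P1 and 2.14 ± 0.02 for P3. The log2 level of these poly-A controls, relative to the mean of all arrays, was -0.23 ± 0.03, 0.61 ± 0.01 and -0.39 ± 0.01 in phase order. The scaling of the arrays to these controls is therefore given beside results that turn on P2, although it also shifts the median change over every tested probe set to -0.83 (log2) from P1 to P2 and to 1.07 from P2 to P3, against 0.01 and 0.07 as deposited. It is 1 shift per array, so it does not correct the difference in the 3-prime to 5-prime ratio. That difference goes with phase, so its part in the histone values at P2 cannot be told apart from age.

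The histone genes did not move as 1 group. By the criterion given next, 5 of the 7 probe sets of wcH2A-9 and wcH2A-2 fell and 0 rose from 11 to 15 days. Of the 7 wcH2B-8 probe sets, 1 fell and 2 rose in that step. From 15 to 20 days all 7 wcH2B-8 probe sets rose, and so did 3 of the 7 of wcH2A-9 and wcH2A-2. By limma with Benjamini-Hochberg adjustment over 36669 probe sets and an adjusted p under 0.05 as the criterion for rose and fell, 6 of the 14 fell and 2 rose from P1 to P2. Among all probe sets tested, 17.4% fell and 16.6% rose in that step. From P2 to P3, 10 of 14 rose and 0 fell, against 14.9% and 11.1% of all probe sets, and at an unadjusted p under 0.05 by limma 11 rose and 0 fell. From P1 to P3, 6 of 14 rose and 3 fell, against 19.2% and 15.7%. The median log2 change of the 14 was -0.18, 0.41 and 0.05 for these comparisons, and that of all probe sets tested was 0.01, 0.07 and 0.07. The comparisons share arrays, so their counts are not independent. The 14 probe sets are repeated measurements of 3 genes on those arrays, so they are not independent of each other either. The shares over all probe sets include dim ones, as the filter lay at 44.8, below array background. They are not matched to the 14 for signal. At 2-fold or more, 1 of the 14 changed from P1 to P2 (12.7% of all) and 1 from P2 to P3 (7.23% of all), wcH2A-2 in both, while 0 of the 14 did from P1 to P3 by limma (13.1% of all), where 9 had an adjusted p under 0.05.

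**Figure D1:**
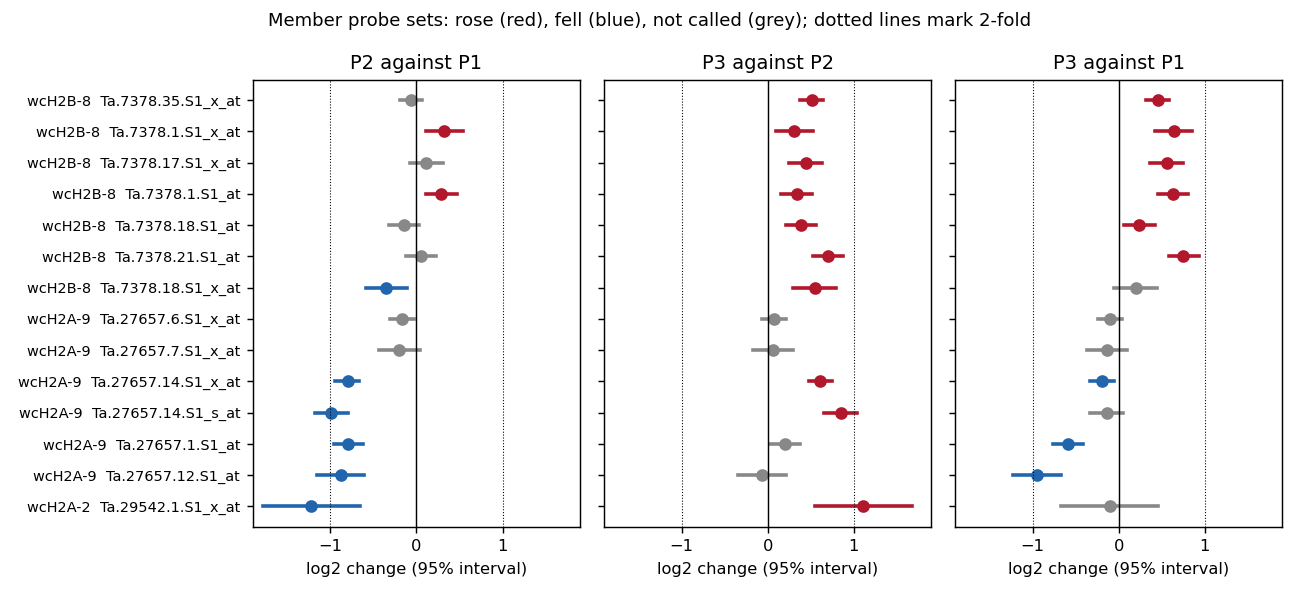
Log2 change of each of the 14 probe sets from P1 to P2, from P2 to P3 and from P1 to P3, with its 95% interval from limma (n = 3 arrays per phase). Red marks a rise and blue a fall at an adjusted p under 0.05, grey marks neither, and dotted lines mark 2-fold. All 7 wcH2B-8 probe sets lie to the right of 0 in the middle panel, and all 7 of wcH2A-9 and wcH2A-2 lie to the left of 0 in the first panel.

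Transcripts of wcH2B-8, which encodes a core histone H2B, rose from P2 to P3 on all 7 probe sets, by log2 changes of 0.31 to 0.70. The brightest, Ta.7378.35.S1_x_at, was at 5811, 5850 and 5793 on the P1 arrays, at 5763, 5394 and 5546 at P2, and at 7626, 7937 and 8240 at P3. The P3 arrays all lay above the other 6, and P2 lay just below P1. Its mean was 5820 ± 29.2 (SD, n = 3), 5570 ± 185 and 7930 ± 307, a rise of 1.42-fold from P2 to P3 (log2 change 0.51, SE 0.06, adjusted p = 5.26e-05 by limma) after a log2 change of -0.06 (95% interval -0.19 to 0.07) from P1 to P2. Scaled to the poly-A controls, that earlier change was -0.90 (adjusted p = 6.07e-08 by limma).

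The wcH2B-8 probe set with the greatest rise, Ta.7378.21.S1_at, read 1969, 1704 and 1988 in grain of 11 days, 2030, 1823 and 2007 in grain of 15 days and 3267, 3143 and 3108 in grain of 20 days. P1 and P2 overlapped, and P3 was clear of both. Its signal rose 1.63-fold from P2 to P3 (log2 change 0.70, SE 0.08, adjusted p = 4.61e-05 by limma) and 1.68-fold from P1 to P3 (log2 change 0.75, SE 0.08, adjusted p = 1.18e-05 by limma). It is an _at probe set, the type without probes marked as shared. Its P1 to P2 log2 change was 0.05 (95% interval -0.12 to 0.23), or -0.79 (adjusted p = 5.14e-06 by limma) with arrays scaled to the poly-A controls.

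A pair of wcH2B-8 probe sets named for the same target sequence rose in both steps. Ta.7378.1.S1_at read 2952, 2594 and 2701 on the P1 arrays, 3355, 3644 and 3078 on the P2 arrays and 4200, 4048 and 4483 on the P3 arrays. Its 3 phases did not overlap. It rose 1.22-fold from P1 to P2 (log2 change 0.29, adjusted p = 0.0159 by limma) and 1.27-fold from P2 to P3 (0.34, adjusted p = 0.00834), and its partner Ta.7378.1.S1_x_at 1.25-fold (0.32, adjusted p = 0.0243) and 1.24-fold (0.31, adjusted p = 0.0345). The P1 to P2 rises were not called without the intensity trend, under median scaling (0.16 and 0.20) or scaling to the hybridization controls (0.13 and 0.17), without P1 replicate 2 (0.25 for each), and for Ta.7378.1.S1_at also without P1 replicate 3 (0.28) or P2 replicate 2 (0.23), for Ta.7378.1.S1_x_at also without P1 replicate 1 (0.33) or P2 replicate 3 (0.25). Scaling to the poly-A controls turned them to -0.55 and -0.52. The P2 to P3 call of Ta.7378.1.S1_x_at ended without P2 replicate 1 (0.26), P2 replicate 2 (0.29), P3 replicate 1 (0.26) or P3 replicate 3 (0.28). With no intensity trend neither P2 to P3 rise of the pair was called (adjusted p = 0.0555 for Ta.7378.1.S1_at and 0.126 for Ta.7378.1.S1_x_at, by limma). Under median or hybridization control scaling the P2 to P3 rise was called in 3 of the 7 wcH2B-8 probe sets.

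The other pair named for 1 target sequence had lower means at P2 than at P1. Ta.7378.18.S1_x_at read 2035, 2463 and 2424 in grain of 11 days, 1603, 1720 and 2135 in grain of 15 days and 2790, 2651 and 2479 in grain of 20 days. P2 replicate 3 lay above the lowest P1 array. The signal fell 1.27-fold from P1 to P2 (log2 change -0.35, SE 0.11, adjusted p = 0.0297 by limma). That call ended without P1 replicate 2 (-0.30), P1 replicate 3 (-0.31), P2 replicate 1 (-0.26) or P2 replicate 2 (-0.31). It also ended with no intensity trend (adjusted p = 0.0989 by limma). From P2 to P3 the signal rose 1.46-fold (0.55, adjusted p = 0.0031). Ta.7378.18.S1_at, at 2380 ± 242, 2150 ± 64.1 and 2810 ± 94.8, had a log2 change of -0.15 from P1 to P2 (adjusted p = 0.201) and rose 1.31-fold from P2 to P3 (0.39, adjusted p = 0.00395). Its P1 to P2 change was called as a fall without P1 replicate 1 (-0.23, adjusted p = 0.036 by limma) and with scaling to the poly-A controls (-0.99, adjusted p = 2.92e-07). Ta.7378.17.S1_x_at was at 3860 ± 244, 4180 ± 389 and 5680 ± 488 and rose 1.36-fold in the second step (0.44, adjusted p = 0.00264), with a log2 change of 0.11 in the first, or -0.73 (adjusted p = 1.54e-05 by limma) scaled to the poly-A controls.

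**Figure D2:**
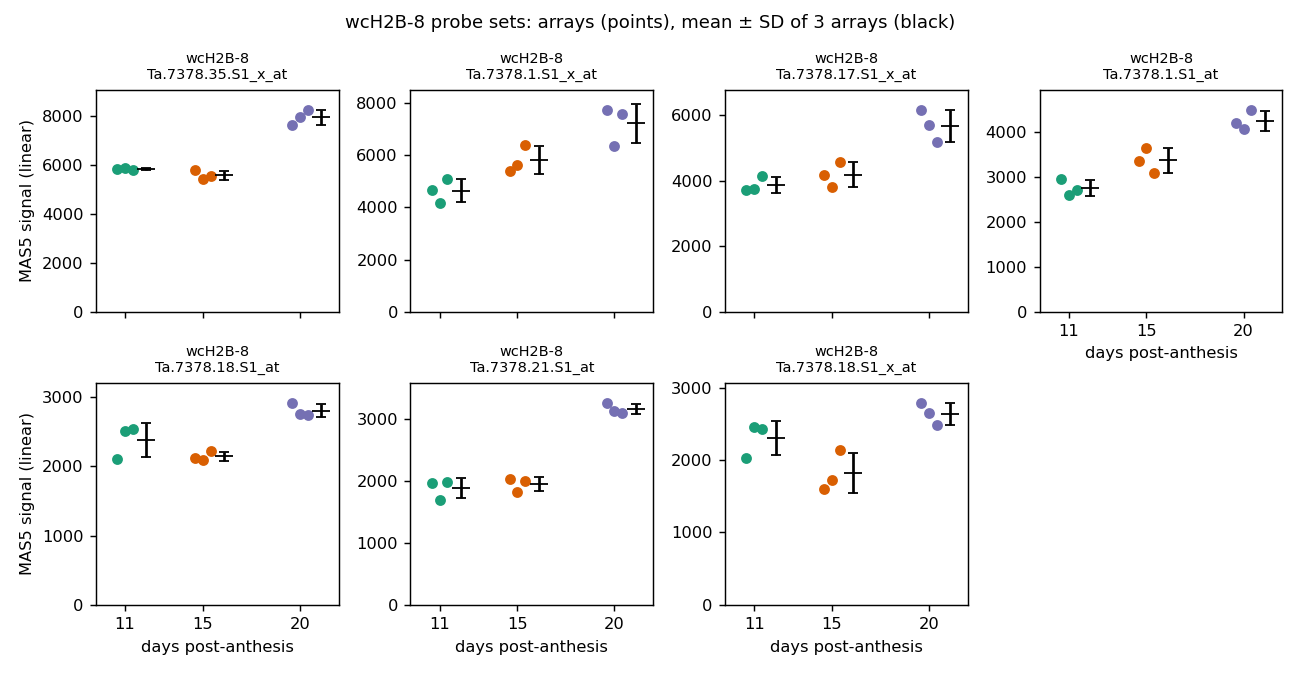
Linear MAS5 signal of the 7 wcH2B-8 probe sets at 11, 15 and 20 days post-anthesis. Each point is 1 array, the black bar beside it is the mean ± SD of 3 arrays, and each vertical axis starts at 0. For Ta.7378.35.S1_x_at the P3 arrays sit between 7626 and 8240 and all other arrays at or below 5850.

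Over the whole interval from P1 to P3, 6 of the 7 wcH2B-8 probe sets rose, with a median log2 change of 0.56. The seventh, Ta.7378.18.S1_x_at, had a log2 change of 0.20 (95% interval -0.05 to 0.44), called under poly-A control scaling (0.36, adjusted p = 0.0219 by limma). With the P2 arrays left out of the fit, 5 of the 7 rose, and Ta.7378.18.S1_at was no longer called (0.24, adjusted p = 0.0548 by limma). Nor was it without P1 replicate 1 (0.15), P3 replicate 1 (0.21), P3 replicate 2 (0.25) or P3 replicate 3 (0.26). Its call also ended by limma with no filter (adjusted p = 0.0637), no intensity trend (adjusted p = 0.117) or the replicate number as a block (adjusted p = 0.061). Scaling to the hybridization controls, whose log2 levels had SDs of 0.24, 0.14 and 0.15 over the replicates of P1, P2 and P3, left 1 of the 7 called, Ta.7378.21.S1_at, and scaling to the median left 4.

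The wcH2A-9 gene, which encodes a core histone H2A, gave 3 patterns on its 6 probe sets, and these differences between probe sets were not tested. In the first pattern the signal dipped at P2. Ta.27657.14.S1_x_at read 5683, 5225 and 5675 on the P1 arrays, 3135, 3141 and 3217 on the P2 arrays and 4754, 4843 and 4915 on the P3 arrays. The phases did not overlap, with P2 lowest and P3 between P2 and P1. It fell 1.75-fold (log2 change -0.80, SE 0.06, adjusted p = 7.92e-07 by limma) and then rose 1.53-fold (0.61, SE 0.06, adjusted p = 1.53e-05).

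Its partner by name, Ta.27657.14.S1_s_at, read 5633, 4768 and 5930, then 2552, 2714 and 2910, then 5126, 4715 and 4931. Here P3 overlapped P1, and P2 was clear of both. It fell 1.99-fold (log2 change -0.99, SE 0.09, adjusted p = 2.73e-06 by limma) and rose 1.81-fold (0.85, SE 0.09, adjusted p = 1.76e-05). From P1 to P3 its log2 change was -0.14 (95% interval -0.33 to 0.05). That of Ta.27657.14.S1_x_at was -0.19 (adjusted p = 0.0288 by limma), and this call ended without P1 replicate 1 (-0.17), P1 replicate 3 (-0.17), P3 replicate 1 (-0.18) or P3 replicate 2 (-0.19), among other settings.

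In the second pattern the signal fell from P1 to P2 and no rise from P2 to P3 was called on the signals as deposited. Ta.27657.1.S1_at read 3705, 3787 and 3913 in grain of 11 days, 2388, 2186 and 2041 in grain of 15 days and 2339, 2615 and 2641 in grain of 20 days. All later arrays lay below all P1 arrays. It fell 1.73-fold (log2 change -0.79, SE 0.08, adjusted p = 8.46e-06 by limma), and the P2 to P3 change was 0.20 (95% interval 0.03 to 0.37, adjusted p = 0.0845), which was called without P2 replicate 1 (0.26, adjusted p = 0.0433), under quantile normalization (0.22, adjusted p = 0.0475) and under poly-A control scaling (1.20, adjusted p = 4.56e-08). Ta.27657.12.S1_at was at 1960 ± 278, 1060 ± 86.1 and 1020 ± 140, fell 1.84-fold (-0.88, adjusted p = 1.72e-04), and had a P2 to P3 change of -0.07 (95% interval -0.34 to 0.21), or 0.93 with arrays scaled to the poly-A controls. Both are _at probe sets, and both fell from P1 to P3, by 0.59 and by 0.95 on the log2 scale (adjusted p = 7.89e-05 and 7.79e-05 by limma).

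In the third pattern no change was called in any comparison on the signals as deposited. The brightest wcH2A-9 probe set, Ta.27657.6.S1_x_at, read 12335, 13045 and 12851 on the P1 arrays, 11730, 11148 and 11068 on the P2 arrays and 11504, 11420 and 12725 on the P3 arrays. P2 lay below P1, and P3 spanned both. Its P1 to P2 log2 change was -0.17 (95% interval -0.31 to -0.03, adjusted p = 0.0601 by limma), which was called without P3 replicate 3 (adjusted p = 0.0229), and its P1 to P3 change was -0.10 (95% interval -0.24 to 0.04). Ta.27657.7.S1_x_at was at 9740 ± 980, 8520 ± 1190 and 8860 ± 708, with log2 changes of -0.20, 0.06 and -0.14 from P1 to P2, P2 to P3 and P1 to P3. Both are _x_at probe sets. Scaled to the poly-A controls, both were called as falls from P1 to P2 (-1.01 and -1.04, adjusted p = 3.75e-08 and 5.05e-06 by limma) and as rises from P2 to P3 (1.07 and 1.06, adjusted p = 2.50e-08 and 3.48e-06).

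The single probe set of wcH2A-2, another H2A gene, was dim and dipped at P2. Ta.29542.1.S1_x_at read 392, 518 and 525 in grain of 11 days, 213, 141 and 282 in grain of 15 days and 516, 513 and 325 in grain of 20 days. P2 lay below both other phases, and its lowest array, replicate 2, was below that array's background of 153.3. It fell 2.33-fold (log2 change -1.22, SE 0.26, adjusted p = 0.00296 by limma) and rose 2.16-fold (1.11, SE 0.26, adjusted p = 0.00705), and its P1 to P3 change was -0.10 (95% interval -0.67 to 0.46).

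**Figure D3:**
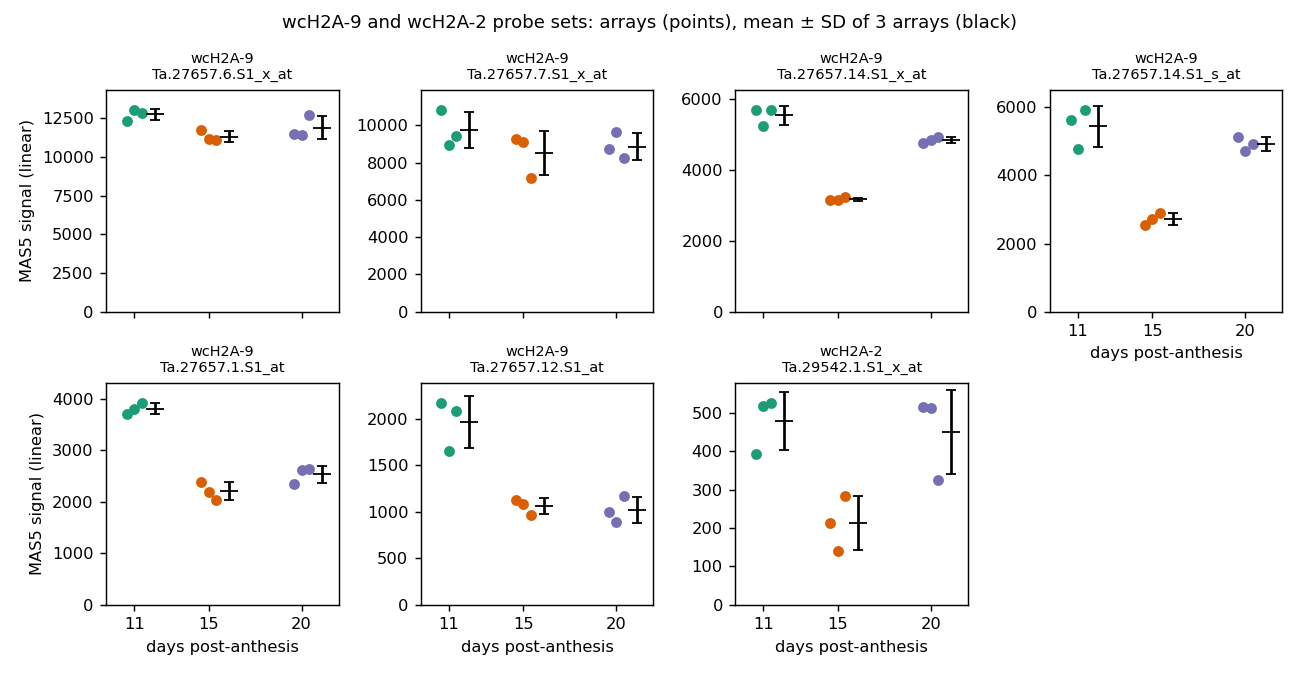
Linear MAS5 signal of the 6 wcH2A-9 probe sets and the wcH2A-2 probe set at 11, 15 and 20 days post-anthesis, drawn as for wcH2B-8 with 1 point per array and the mean ± SD of 3 arrays in black. Both Ta.27657.14 probe sets and Ta.29542.1.S1_x_at are lowest at 15 days, Ta.27657.1.S1_at and Ta.27657.12.S1_at stay low at 20 days, and Ta.27657.6.S1_x_at remains between 11068 and 13045.

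The falls from P1 to P2 of the 4 called wcH2A-9 probe sets and of wcH2A-2 were called under all 18 alternatives run for that comparison, every scaling and every left-out array among them. The rises from P2 to P3 of Ta.27657.14.S1_x_at, Ta.27657.14.S1_s_at and Ta.29542.1.S1_x_at held under all 18 as well, as did those of 3 wcH2B-8 probe sets, Ta.7378.35.S1_x_at, Ta.7378.21.S1_at and Ta.7378.18.S1_x_at. Not all 18 could have ended these calls. Poly-A control scaling shifted the median change of all probe sets to -0.83 and 1.07 in these steps, the direction of the calls. Leaving out an array of the phase not compared left the change itself as it was. In the fit on the signals as deposited, the step from P2 to P3 lay above the step from P1 to P2 in 9 of the 14 probe sets and below it in 0. At an unadjusted p under 0.05 by limma the numbers were also 9 and 0. Among all probe sets, 15.3% lay above and 12.4% below. Probe sets of 1 gene are not independent, so the 9 are not separate results. Those 9 were 4 of wcH2B-8, 4 of wcH2A-9 and that of wcH2A-2. Under every alternative 5 of the 9 held, 1 of wcH2B-8, 3 of wcH2A-9 and that of wcH2A-2. Ta.7378.35.S1_x_at was not called under hybridization control scaling (0.72, adjusted p = 0.0874 by limma). The difference between the steps was largest in wcH2A-2 (2.33, SE 0.45, adjusted p = 0.00206) and in Ta.27657.14.S1_s_at (1.85, SE 0.15, adjusted p = 2.96e-06), and it was 0.57 (SE 0.10, adjusted p = 0.00129) in Ta.7378.35.S1_x_at. Under scaling to the poly-A controls 14 of 14 fell from P1 to P2 and 14 of 14 rose from P2 to P3. Among all 36669 probe sets under that scaling, 21726 fell in the first step and 27086 rose in the second.

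Whether the member genes changed unequally was asked with the ratio of their brightest probe sets within each array. A scaling factor for the whole array does not alter this ratio. The brightest wcH2A-9 probe set is of the third pattern above, and single probe sets do not stand for all H2B or H2A genes. The log2 ratio of the brightest wcH2B-8 to the brightest wcH2A-9 probe set, with its P1 mean set to 0, was 0.04, -0.03 and -0.02 on the P1 arrays, 0.11, 0.08 and 0.13 on the P2 arrays and 0.54, 0.61 and 0.50 on the P3 arrays. Each phase lay above the one before with no overlap. The ratio rose by 0.11 from P1 to P2 and by 0.44 from P2 to P3, with SDs of 0.03 to 0.05. An exact permutation test of the between-phase F statistic over 1680 assignments gave p = 0.00357, the smallest that design allows, and an adjusted p = 0.0107 over the 3 ratios tested. With the mean over all probe sets of each gene in place of the brightest, the rise was already 0.67 at P2 and 0.84 at P3 (exact permutation, adjusted p = 0.0214). With the replicate number as a block, the ratio of the brightest probe sets did not pass (exact permutation, adjusted p = 0.0833).

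The ratios to wcH2A-2 were more scattered. That of wcH2B-8 had means of 0.00 ± 0.24, 1.15 ± 0.48 and 0.55 ± 0.43 (exact permutation p = 0.0429, adjusted p = 0.0643), and P3 replicate 3 lay apart from the other P3 arrays, at 1.05 against 0.27 and 0.33. That of wcH2A-9 had means of 0.00 ± 0.20, 1.05 ± 0.51 and 0.00 ± 0.47 (exact permutation p = 0.0679, adjusted p = 0.0679). Without P3 replicate 3 both passed, at an exact permutation adjusted p = 0.0286. With means over all probe sets the wcH2B-8 ratio passed too (exact permutation, adjusted p = 0.0214).

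**Figure D4:**
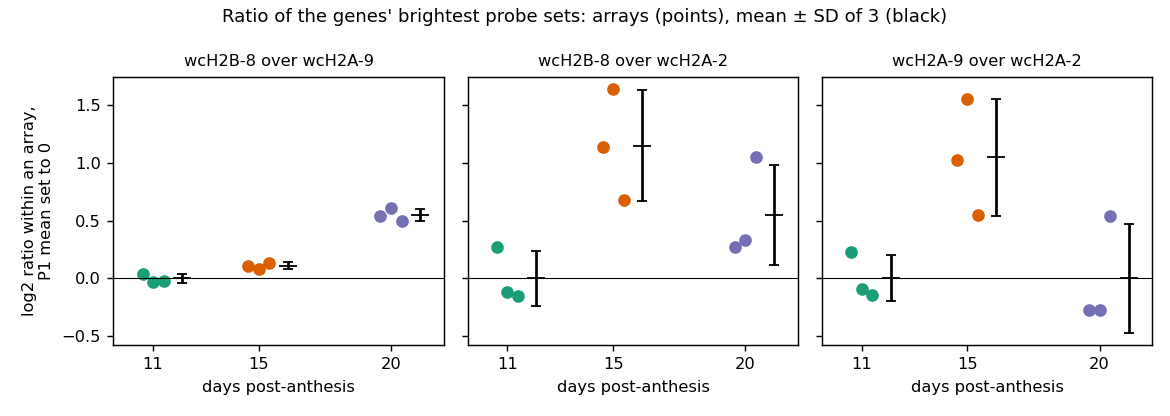
Log2 ratio within each array between the brightest probe sets of pairs of the 3 histone genes, with the P1 mean set to 0, against days post-anthesis. Points are arrays, and black bars are the mean ± SD of 3 arrays. The wcH2B-8 to wcH2A-9 ratio is 0.50 to 0.61 at 20 days and at most 0.13 earlier, and the means of the ratios to wcH2A-2 are highest at 15 days with wide spread.

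Probe sets of 1 gene were more or less alike over the 9 arrays. The root mean square difference of log2 signals, each centred on its own mean, was 0.12 to 0.33 (median 0.19) over the 21 pairs within wcH2B-8 and 0.12 to 0.43 (median 0.30) over the 15 pairs within wcH2A-9. It was 0.18 to 0.71 (median 0.40) over the 42 pairs between wcH2B-8 and wcH2A-9. The pairs that share a name were at 0.12 for both Ta.27657.14 probe sets, 0.12 for both Ta.7378.18 and 0.14 for both Ta.7378.1. Pairs share the arrays and can share probes, so this is a description.

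Of the other histone and chromatin genes in the annotation, 3 genes with 6 probe sets were found, and 1 rose and 2 fell from P1 to P2, 2 rose and 2 fell from P2 to P3, and 0 rose and 2 fell from P1 to P3 (2 with an unadjusted p under 0.05 by limma, both lower at P3). Their median log2 changes were -0.44, 0.12 and -0.27. The second H2B gene, wcH2B-6 (LOC543183), dipped at P2 on both of its probe sets. Its probe set Ta.27708.1.S1_at read 7746, 7255 and 7394 in grain of 11 days, 4881, 4289 and 4529 in grain of 15 days and 6938, 6458 and 6967 in grain of 20 days, so P2 was clear of both other phases. It fell 1.64-fold (log2 change -0.71, SE 0.07, adjusted p = 5.89e-06 by limma) and rose 1.49-fold (0.57, SE 0.07, adjusted p = 6.01e-05), and Ta.27708.1.S1_x_at fell 1.75-fold and rose 1.37-fold. The difference between the 2 H2B genes was not tested. The third H2A gene, wcH2A-3 (LOC732713), was at 1890 ± 277, 1500 ± 106 and 1670 ± 326 on Ta.27192.1.S1_at and passed in no comparison on either probe set. Hmgb3 (LOC543333), a high mobility group protein that binds DNA, fell from P2 to P3 on both probe sets, by log2 changes of -0.31 and -0.44.

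For DNA replication and the cell cycle the annotation gave 10 probe sets of 6 genes, all of them tubulins, which build microtubules of the spindle and of the cell cortex alike, so the list does not mark division. From P1 to P2, 7 of the 10 rose and 1 fell, from P2 to P3 2 rose and 4 fell, and from P1 to P3 6 rose and 3 fell, with median log2 changes of 0.35, -0.11 and 0.51. Of all probe sets tested, 16.6%, 14.9% and 19.2% rose in these comparisons, and 17.4%, 11.1% and 15.7% fell. The alpha-tubulin TUBA on Ta.723.1.S1_at was high at P2, at 2460 ± 128, 4470 ± 277 and 1970 ± 52.7, while its other probe set, Ta.812.1.S1_x_at, was at 34800 ± 2140, 40100 ± 1720 and 37600 ± 5580. TUBA was singled out after its values were seen.

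Of the named genes other than the 3 histones, those most like each histone gene's brightest probe set were found among the tested probe sets by the same root mean square difference over the 9 arrays. For wcH2B-8 they were LOC543076 (0.07), LOC543447 (0.09) and LOC542943 (0.09), and LOC543076 was at 18500 ± 592, 17900 ± 747 and 24100 ± 1650. For wcH2A-9 they were LOC543158 (0.05), LOC542904 (0.07) and LOC542971 (0.08). Its brightest probe set is of the third pattern, in which no change was called. Signals that are both flat differ little by this measure, and the probe sets of its other patterns were not matched. For wcH2A-2, whose probe set is dim and varies between replicates, the differences were larger. The nearest were LOC606332 on 2 probe sets (0.26 and 0.28) and DMAS1 (LOC100037594, 0.32). DMAS1, an enzyme of iron chelator synthesis, was at 1860 ± 194, 820 ± 100 and 1390 ± 153.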

How the data were processed

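The deposited values are MAS5 signals, linear intensity values per probe set, 61290 on each of the 9 arrays; the submitters' processing notes name MAS5 without stating which release. With 2% trimmed at each end, each array's deposited intensity values averaged 500.1, so changes are relative to the bulk of signal on an array. MAS5 subtracts mismatch probe signal, which makes dim values noisy. Detection calls were not used here.

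After 175 control probe sets were left out, the lowest 40% by mean log2 signal were dropped, leaving 36669 with a geometric mean above 44.8. No pseudocount was added. With limma 3.58.1 in R 4.3.3, 1 model with phase as the factor (6 residual degrees of freedom) and an intensity trend gave log2 changes, standard errors, 95% intervals and Benjamini-Hochberg adjusted p-values over all 36669. Ratios within arrays were tested by exact permutation in Python 3.11.15. Both procedures were tested on simulated data. Alternatives were other scalings, no filter, a pseudocount of 32, dim signals raised to background, no trend, the replicate number as a block, and leaving out each array. Precision is limited by 3 arrays per phase.

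Same-numbered arrays of different phases did not deviate together (r from -0.05 to 0.03 over 9 pairs across probe sets). No strong shared effect of the replicate number was seen, but this cannot tell whether same-numbered samples shared a plot. The replicate block is therefore given as an alternative. The platform annotation names 1273 probe sets of 771 genes, and synonyms came from RefSeq's table of assembly IWGSC CS RefSeq v2.1. All member probe sets are described, related genes were taken by symbol or synonym, and the 3 probe sets most like each gene's brightest were named. The members and lists were chosen with earlier results of these data known.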

Additional observations from a re-analysis of the deposited data

How the results depend on the processing

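Some counts out of 14 probe sets changed by more than 1.5 times under other settings, and smaller changes are given beside them. From P1 to P2 the number that rose, 2 as reported, was 0 under median scaling, hybridization control scaling, poly-A control scaling and with no intensity trend, and 0 to 2 with 1 array left out; it was 0 without P1 replicate 2 and 1 without P1 replicate 1, P1 replicate 3, P2 replicate 2 or P2 replicate 3. The number that fell, 6, was 14 under poly-A control scaling and 5 to 7 with 1 array left out. Under poly-A control scaling 21726 of all 36669 probe sets fell in that step. From P2 to P3 the number that rose, 10, was 6 under median scaling and 6 under hybridization control scaling, and 9 to 10 with 1 array left out, while 0 fell throughout. From P1 to P3 the number that rose, 6, was 1 under hybridization control scaling, and 5 to 6 with 1 array left out, and the number that fell, 3, was 2 to 3. The later step exceeded the earlier one in 9, in 5 under hybridization control scaling, in 14 under poly-A control scaling and in 8 to 9 with 1 array left out, and the opposite was called in 0 throughout. Among all 36669 probe sets, the later step exceeded the earlier one in 26547 under poly-A control scaling. The cause of these shifts was not tested. Poly-A control scaling moved the median change of all probe sets to -0.83 from P1 to P2 and to 1.07 from P2 to P3. With the replicate block the counts were 2 and 6 from P1 to P2, 10 and 0 from P2 to P3, and 5 and 2 from P1 to P3, where it ended the calls of Ta.7378.18.S1_at (0.24, adjusted p = 0.061) and Ta.27657.14.S1_x_at (-0.19, adjusted p = 0.0551).

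The wcH2B-8 to wcH2A-9 ratio had an exact permutation adjusted p = 0.0833 with the replicate block (unadjusted 0.0278, the smallest that its 216 assignments allow, beside 0.167 and 0.194 for the other ratios); with 1 array left out it was 0.0107 to 0.0214. The wcH2B-8 to wcH2A-2 ratio (0.0643) was 0.0214 with the mean over probe sets and 0.0286 to 0.129 with 1 array left out, and the wcH2A-9 to wcH2A-2 ratio (0.0679) was 0.0286 to 0.129.

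Of 1022 recomputed changes of single probe sets, 66 lost the call, 16 gained one and 6 were called in the opposite direction or turned sign, all 6 under poly-A control scaling. These were, from P1 to P2, Ta.7378.1.S1_at (-0.55), Ta.7378.1.S1_x_at (-0.52), Ta.7378.17.S1_x_at (-0.73) and Ta.7378.21.S1_at (-0.79), from P2 to P3 Ta.27657.12.S1_at (0.93), and for the difference between steps Ta.7378.1.S1_x_at (1.83). A further 22 small changes, called in neither setting, changed sign. The wcH2A-2 probe set lies near background at P2 and is the least precise member.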
